A study of Mus musculus with 4 samples.

Results

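A set of 10 genes of cardiac muscle, Myl7, Myl4, Tcap, Nppa, Myh6, Tnnt2, Tnni3, Actc1, Sln and Pln, were followed in whole-lung RNA of mice. They were chosen by name, as 10 gene symbols of heart muscle, with earlier results of these data known. All 10 were found among the 47729 genes of the deposited count tables. The samples were 4 lung libraries from mice of strain BL/6 with the genotype Control (Rosa), so that by their labels none carried a KCNK3 mutation. Groups of 2 libraries each were compared. In the normoxic group (label Normoxic) replicate 1 was a pool of 3 females and replicate 2 a pool of 1 female and 2 males. In the treated group (label Sugen-Hypoxic) each replicate was a pool of 2 males kept in hypoxia and given Sugen, a drug that blocks the receptors of VEGF, so that the effects of drug and hypoxia cannot be told apart. The replicates are pools by their labels. Age, dose and duration of treatment were not in the labels used here. The series addresses hypoxia with and without mutation of KCNK3, and the mutant arm was not analysed here.

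In the mouse, heart muscle extends from the left atrium along the pulmonary veins into the lung, where it forms a sleeve of striated muscle around the larger veins. Lung RNA therefore holds transcripts of the cardiac sarcomere, in which myosin thick filaments pull on actin thin filaments when calcium binds the troponin complex. Relaxation follows when the pump SERCA returns calcium to the sarcoplasmic reticulum, a step that the small membrane proteins phospholamban (Pln) and sarcolipin (Sln) restrain. Atrial muscle is known for its own myosin light chains (Myl7 and Myl4), for sarcolipin and for atrial natriuretic peptide (Nppa). Whole-lung counts carry no position, so that these transcripts come from the vein sleeves is background and not a measurement. In bulk RNA, fewer cells of a type and less RNA per cell cannot be told apart.

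Upstream sequence was taken from the RefSeq promoter table (GRCm38.p6), which held 8 of the 10 genes, with 9 start sites in all (not Tcap or Sln). The 250 bases before the start are shown for the 3 entries in which no base lay in an annotated exon. Overlap with introns of other genes was not checked. Capitals mark matches on either strand to the motifs searched. These were GATAA (the core bound by GATA factors), CATTCC (the MCAT element of TEAD factors), TATAAA (the TATA box), the CArG box of serum response factor and the MEF2 box. The matches in the windows did not overlap one another.
Myl7 (chr11:5898783-5899032, minus strand): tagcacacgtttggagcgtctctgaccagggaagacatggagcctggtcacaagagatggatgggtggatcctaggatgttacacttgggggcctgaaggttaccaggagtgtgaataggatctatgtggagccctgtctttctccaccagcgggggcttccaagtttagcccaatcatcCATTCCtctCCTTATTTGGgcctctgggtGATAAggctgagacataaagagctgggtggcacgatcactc
Tnnt2 (chr1:135836084-135836333, plus strand): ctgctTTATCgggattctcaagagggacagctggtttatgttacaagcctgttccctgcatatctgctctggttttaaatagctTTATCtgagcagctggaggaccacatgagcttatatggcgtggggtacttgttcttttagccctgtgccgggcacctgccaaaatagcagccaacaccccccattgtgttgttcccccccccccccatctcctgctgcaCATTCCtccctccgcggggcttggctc
Nppa (chr4:148000472-148000721, plus strand): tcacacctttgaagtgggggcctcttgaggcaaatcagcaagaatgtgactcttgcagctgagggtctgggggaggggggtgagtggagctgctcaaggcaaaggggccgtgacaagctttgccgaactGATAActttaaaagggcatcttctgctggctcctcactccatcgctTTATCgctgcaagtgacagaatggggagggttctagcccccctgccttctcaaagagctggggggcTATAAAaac
In Myl7 a CATTCC, a CArG box and a GATAA followed each other within the last 70 bases before the start, at 70 to 65, 61 to 52 and 41 to 37 bases. The CArG box was also found in Actc1, at 47 to 38 bases, and so in 2 of the 8 genes, against 1.47% of 32817 mouse promoter windows of the same length. GATAA was found in 4 of the 8 genes (Myl7, Nppa, Tnnt2 and Pln; 22.6% of windows), CATTCC in 3 (Myl7, Myh6 and Tnnt2; 12.6%) and TATAAA in 2 (Nppa and Pln; 12.4%). The MEF2 box was found in 0 of the 8 (0.509% of windows). A match describes the letters in these windows and says nothing of whether a factor binds.

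All 10 genes were lower in both Sugen-hypoxia libraries than in both normoxic libraries, and 2 of them, Tcap and Myl7, fell in the test across all genes. Levels are given as CPM, gene counts per 1000000 on library sizes scaled by TMM, a method that sets the bulk of genes equal between libraries. The test was edgeR's quasi-likelihood test with Benjamini-Hochberg adjustment at 0.05 over 18783 genes, of which 6.01% were called as lower and 5.51% as higher. The order of both treated libraries below both normoxic ones was met by 31.7% of all genes tested. All 10 genes passed the expression filter. All 10 had a log2 fold change (Sugen-hypoxia over normoxia) below 0, as did 50.5% of all genes tested, and 0 of the 10 had both treated libraries above both normoxic ones, an order met by 30.0% of all genes. The median log2 fold change of the 10 was -0.79, beside -0.00 over all genes tested. Because the 10 were chosen with earlier results of these data known, these shares describe the set and do not test it. None of the 10 was higher with edgeR (0 also at an unadjusted p under 0.05, and 0 with DESeq2 or limma-voom), while 6 were lower at an unadjusted p under 0.05, as were 15.2% of all genes tested. P-values measure the spread between these 4 pools only.

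The sum of the 10 genes was 662 and 614 CPM in normoxic replicates 1 and 2 and 267 and 439 CPM in Sugen-hypoxia replicates 1 and 2. The normoxic pools were thus close to each other and the treated pools were not, with replicate 1 at 41.8% and replicate 2 at 68.7% of the normoxic mean. The group means were 638 ± 33.3 and 353 ± 122 CPM (SD, n = 2), a 1.81-fold lower sum. An exact two-sided permutation test gave p = 0.333, the smallest value that 2 against 2 libraries allow.

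**Figure D1:**
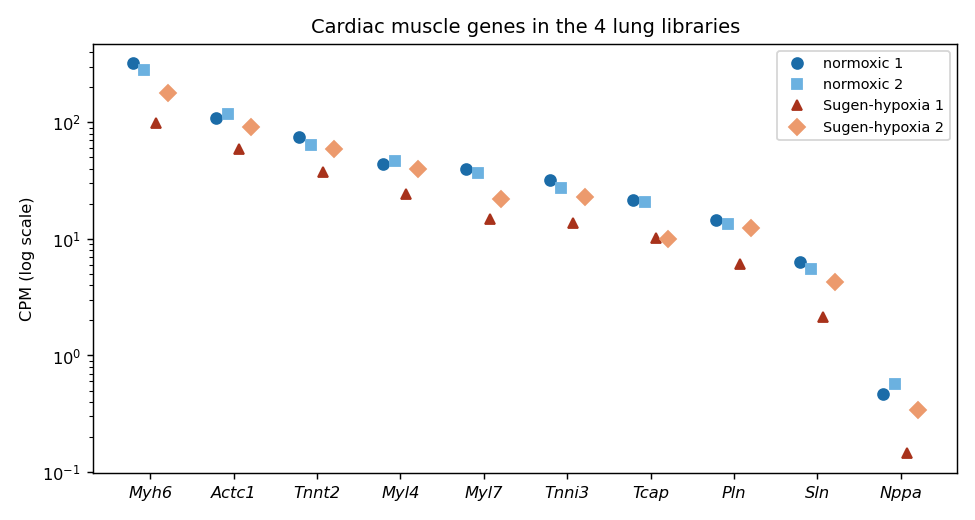
CPM (log axis) of the 10 cardiac muscle genes in each of the 4 libraries, ordered by normoxic mean; each symbol is 1 library. Both treated libraries lie below both normoxic ones in every gene, and Sugen-hypoxia 1 is the lowest library in all but Tcap, from Myh6 (98.5 CPM) down to Nppa (0.144 CPM).

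Among the thick filament genes, Myh6, the alpha myosin heavy chain and the main motor of the mouse heart, had the highest CPM of the 10. Myh6 (ENSMUSG00000040752, GRCm38 chromosome 14, 54941921 to 54966927, minus strand) was at 320 and 282 CPM in the normoxic libraries and at 98.5 and 177 CPM in the treated ones. The groups did not overlap, and the treated libraries differed 1.80-fold from each other. The log2 fold change was -1.13 ± 0.26 (SE), and its adjusted p of 0.0519 in edgeR's test missed the threshold. It passed with DESeq2 (adjusted p = 0.0427), limma-voom (0.0471), upper-quartile factors (0.048), library size only (0.0445) or no expression filter (0.000212), and without either treated library, in 7 of 13 alternatives. It did not pass in the other 6, which were DESeq2 size factors within edgeR (0.0524), a mean of at least 1 CPM (0.051), unstranded counts (0.0502), the share of males in the model (0.63), and leaving out normoxic replicate 1 (0.258) or 2 (0.197). Myh7, the neighbouring and closely related beta heavy chain, was at 30.4, 29.6, 23.9 and 17.8 CPM in the same order of libraries. Reads that match both heavy chains were not counted for either, so their levels are uncertain.

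Myl7 (ENSMUSG00000020469, chromosome 11, 5896637 to 5898782, minus strand), the atrial regulatory light chain, was at 40 and 36.9 CPM in normoxia and at 14.9 and 22.2 CPM after treatment. It fell 2.07-fold, a log2 fold change of -1.05 ± 0.19 with adjusted p = 0.0256 in edgeR's test. The treated libraries were at 38.7% and 57.7% of the normoxic mean, so that neither came within the normoxic range. Myl4 (ENSMUSG00000061086, chromosome 11, 104550663 to 104595753, plus strand), the atrial essential light chain, was at 44 and 46.8 CPM against 24.4 and 39.4 CPM. In this gene treated replicate 2 kept 86.8% of the normoxic mean and replicate 1 kept 53.6%, and the log2 fold change was -0.51 ± 0.21 (adjusted p = 0.182 in edgeR's test). Both light chains bind the neck of the myosin heavy chain.

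None of the 3 thin filament genes passed the test. Actc1 (ENSMUSG00000068614, chromosome 2, 114047282 to 114053548, minus strand), the cardiac alpha-actin, was at 108 and 117 CPM in normoxia and 59.2 and 90.6 CPM after treatment. Tnnt2 (ENSMUSG00000026414, chromosome 1, 135836354 to 135852260, plus strand), which anchors the troponin complex to tropomyosin, was at 74.3 and 64.1 against 37.4 and 59.5 CPM. Tnni3 (ENSMUSG00000035458, chromosome 7, 4518305 to 4524229, minus strand), the inhibitory troponin of adult heart, was at 32 and 27.6 against 13.8 and 22.9 CPM. In all 3 the groups did not overlap, though in Tnnt2 treated replicate 2 lay close under the lower normoxic library. Their log2 fold changes were -0.59 ± 0.19, -0.51 ± 0.22 and -0.70 ± 0.23, with adjusted p = 0.108, 0.18 and 0.114 in edgeR's test. Tnni3 passed in 4 of 13 alternatives, which were DESeq2 (adjusted p = 0.0156), no expression filter (0.0078) and leaving out either treated library, and in the other 9 its adjusted p was 0.0935 to 0.77. Tnni3 shares bases on the same strand with Dnaaf3, a gene of cilia assembly, and reads that fit both were left out of either count. Dnaaf3 had 831 and 702 reads in normoxia and 351 and 537 after treatment, so that treated replicate 1 was its lowest library too, and its part in the values of Tnni3 was not tested.

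Tcap (ENSMUSG00000007877, chromosome 11, 98383811 to 98384953, plus strand), telethonin, caps the ends of the giant protein titin at the Z-disc. It was at 21.7 and 20.9 CPM in normoxia and at 10.2 and 9.89 CPM after treatment. Alone among the 10 genes, its treated libraries were nearly equal, at 47.7% and 46.5% of the normoxic mean. It fell 2.12-fold, a log2 fold change of -1.09 ± 0.08 with adjusted p = 0.00468 in edgeR's test. The call on Tcap and that on Myl7 were lost without normoxic replicate 1 (adjusted p = 0.0708 and 0.177) and without normoxic replicate 2 (0.0562 and 0.136), with log2 fold changes of -1.05 to -1.12 for Tcap and -0.99 to -1.11 for Myl7. When the share of males in each pool was added to the model, their values were -1.03 and -0.94 and neither passed (adjusted p = 0.31 and 0.548).

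Neither calcium handling gene passed the test, and both spread widely after treatment. Sln (ENSMUSG00000042045, chromosome 9, 53850164 to 53854560, plus strand) was at 6.32 and 5.57 CPM in normoxia and 2.15 and 4.29 CPM after treatment. Pln (ENSMUSG00000038583, chromosome 10, 53337667 to 53345987, plus strand) was at 14.4 and 13.3 against 6.08 and 12.4 CPM. In both genes treated replicate 2 was the nearer to normoxia (72.1% of the normoxic mean for Sln and 89.7% for Pln), and replicate 1 was at 36.1% and 43.9%. The log2 fold changes of -0.88 ± 0.33 for Sln and -0.58 ± 0.32 for Pln had adjusted p = 0.146 and 0.28 in edgeR's test. Pln lies inside Cep85l, a gene on the opposite strand, and for Pln 2.63 to 12.5% as many reads were counted on the strand opposite to the gene.

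Nppa (ENSMUSG00000041616, chromosome 4, 148000722 to 148002079, plus strand), the precursor of the natriuretic hormone, was barely present. It had 32 and 34 reads in the normoxic libraries and 8 and 22 in the treated ones, or 0.468, 0.567, 0.144 and 0.342 CPM. The groups did not overlap, and the log2 fold change was -1.07 ± 0.53 (adjusted p = 0.241 in edgeR's test). Reads on the opposite strand, where Gm13054 is annotated, numbered 12, 8, 14 and 8, so for Nppa the strand of a read decides much of the count.

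**Figure D2:**
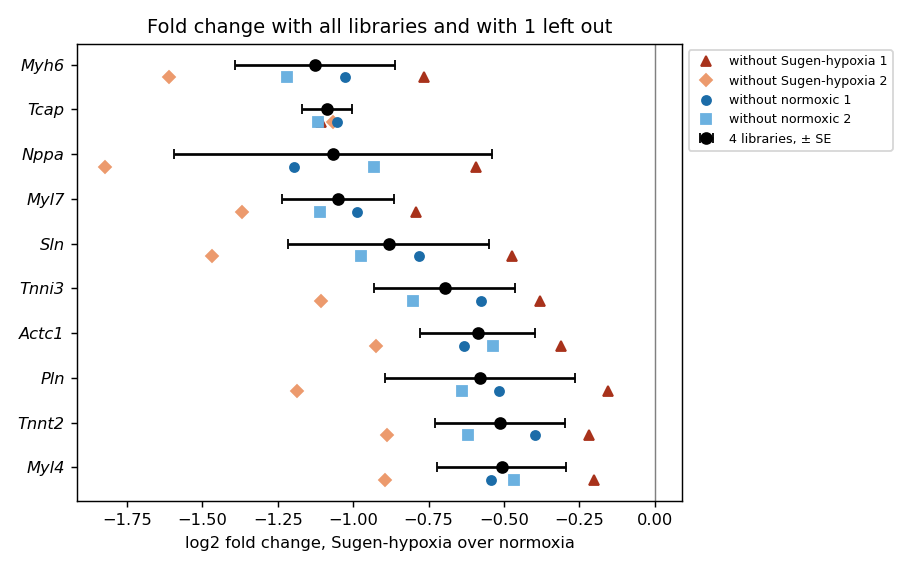
Log2 fold change (Sugen-hypoxia over normoxia) of each gene with all 4 libraries (black, bars are ± SE) and with 1 library left out (coloured symbols). Every value lies below 0; without Sugen-hypoxia 1 they run from -1.10 in Tcap to -0.16 in Pln, without Sugen-hypoxia 2 from -1.82 in Nppa to -0.89 in Tnnt2, and the values of Tcap stay between -1.12 and -1.05.

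The distance of these genes below normoxia differed between the treated libraries. Treated replicate 2 exceeded replicate 1 in 9 of the 10 genes, with Tcap as the exception, and was at least 1.5 times as high in 8. Of the genes tested that had reads in every library, replicate 2 was the higher in 9214 of 18646. The median ratio of replicate 2 to replicate 1 was 1.64 over the 10 genes and 0.998 over all genes tested, and 10.4% of all genes were at least 1.5 times as high. Between the normoxic libraries, an all-female pool and a mixed pool, the median ratio of replicate 2 to replicate 1 was 0.925, with single genes from 0.861 in Tnni3 to 1.21 in Nppa. Of the 10 genes, 5 passed as lower without treated replicate 1 and 9 without treated replicate 2, where the single treated library left is assumed to vary like the normoxic pair, and 0 without either normoxic library. The share of all genes called as lower moved with these counts, from 12.3% without treated replicate 1 and 12.5% without treated replicate 2 to 0.041% and 0.296% without normoxic replicate 1 and 2. Without an expression filter 8 of the 10 passed, beside 6.91% of all genes, and with DESeq2 4 passed, beside 8.53%. Both treated pools were all male and neither normoxic pool was. With the share of males in the model, all 10 log2 fold changes were below 0 and their median was -0.70. In that fit 0 of the 10 and 0.0373% of all genes were called as lower. The effect of sex in that fit rests on the normoxic pools alone, so sex and treatment cannot be told apart.

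Proportions within the set are given per library, without a test. The log2 ratio of Myl4 to Myl7, which does not depend on library scaling, was 0.14 and 0.34 in the normoxic libraries and 0.71 and 0.83 in the treated ones. That of Tnnt2 to Myl7 was 0.90 and 0.80 against 1.33 and 1.42, and that of Actc1 to Myl7 was 1.44 and 1.66 against 1.99 and 2.03. Myl7 was thus lower in relation to these 3 genes in each treated library. Since Myl7 itself was at 38.7% and 57.7% of its normoxic mean, genes that fell less or did not change, on or off this set, also tend to be higher relative to it. The share of all genes for which this held was not counted. The ratio of Tnni3 to Myl7 was also higher in both treated libraries (-0.11 and 0.04 against -0.32 and -0.42), as was that of Pln (-1.29 and -0.84 against -1.47 and -1.47). The groups overlapped for Myh6, whose lowest ratio was 2.73 in treated replicate 1, for Sln (-2.66 and -2.73 against -2.79 and -2.37) and for Tcap (-0.88 and -0.82 against -0.55 and -1.17). As a share of the summed CPM of the 10 genes, Myh6 took 48.4% and 45.9% in normoxia and 36.9% and 40.4% after treatment.

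**Figure D3:**
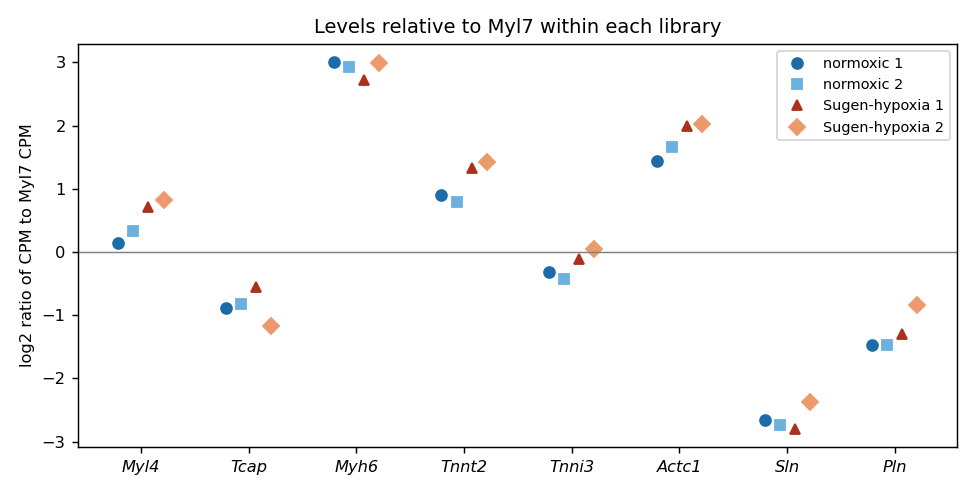
Log2 ratio of each gene's CPM to that of Myl7 within the same library; each symbol is 1 library, and Nppa, near -6, is not drawn. Myl4, Tnnt2, Tnni3, Actc1 and Pln are higher relative to Myl7 in both treated libraries than in both normoxic ones, while Tcap, Myh6 and Sln overlap. Myl7 itself was lower in both treated libraries, so a gene that fell less tends to be higher relative to it.

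To compare levels between genes, CPM were divided by length, as CPM per kilobase of the union of each gene's annotated exons. In normoxia Actc1 was at 69.6 ± 3.68 (SD, n = 2) and Myl7 at 65.2 ± 3.64 CPM per kilobase, with overlapping libraries, and Myh6 followed at 44.8 ± 3.995. Tcap was at 22.5 ± 0.608, Tnni3 at 14.4 ± 1.52, and Myl4 at 9.79 ± 0.414 and Tnnt2 at 8.93 ± 0.931, again overlapping. Pln at 5.02 ± 0.277, Sln at 4.51 ± 0.402 and Nppa at 0.599 ± 0.081 came last. The exon unions of Myl4 and Tnnt2 span 4637 and 7752 bases, against 943 and 1200 bases in their longest principal transcript. With that transcript as length, chosen after seeing the data, Tnnt2 was at 57.7 ± 6.02, Myl4 at 48.1 ± 2.04 and Tnni3 at 32.7 ± 3.44, and Actc1 (76.5 ± 4.05), Myl7 (unchanged) and Myh6 (49.2 ± 4.4) remained among the 5 highest. Myh6 and Myl4 then overlapped and have no order. After treatment, on the principal transcript, Actc1 was at 50.9 ± 15.1, Tnnt2 at 40.4 ± 13.1, Myl4 at 33.8 ± 11.3, Myl7 at 31.4 ± 8.75 and Myh6 at 22.5 ± 9.09, and the ranges of neighbours in this order overlapped.

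Other striated muscle was checked by its defining genes. The ventricular light chain Myl2 had 8 and 10 reads in the normoxic and 0 and 2 in the treated libraries, at most 0.167 CPM. Myl3, the ventricular essential light chain, was at 1.01 to 1.60 CPM. Myh7, the beta heavy chain, was at 17.8 to 30.4 CPM, present in every library. Irx4, a ventricular transcription factor, and Bmp10, a growth factor of the right atrium, had 0 reads in every library. The summed level of the 13 ventricular genes was 1810 to 1965 CPM in normoxia and 2166 to 2728 after treatment, of which Gpx3, a secreted peroxidase, made up 1409 to 2375 CPM. Of 10 tested, Cyp26b1 (retinoic acid breakdown) fell by 2.78 and Irx1 rose by 0.52 on the log2 scale. Cyp26b1 was at 238 and 115 CPM in the normoxic libraries and 30.2 and 21.4 CPM in the treated ones, and Irx1 at 94.65 to 144.8 CPM. Both were far above Myl2 and Irx4, and which cells they came from was not tested. Of the skeletal markers, the fast myosin Myh4 had 0 reads and the skeletal actin Acta1 0.0932 to 0.253 CPM. The 25 skeletal genes summed to 52.7 and 52.6 CPM in normoxia and 40.3 and 51.8 after treatment, with Eno3 at 10.3 to 23 and Ckm at 5.43 to 10.7 CPM, both of which heart muscle also uses. Of 16 tested, Eno3 fell by 0.79, and Mybpc2 and Myh1 rose by 1.62 and 2.39 on the log2 scale from normoxic means of 2.02 and 0.256 CPM.

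**Figure D4:**
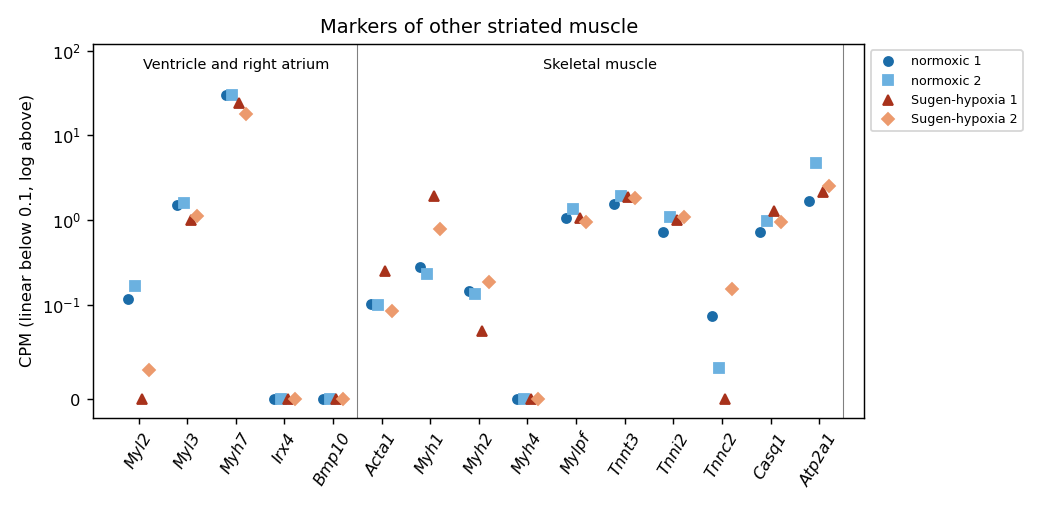
CPM of defining genes of ventricle, right atrium and skeletal muscle in the 4 libraries (axis linear below 0.1 and logarithmic above); each symbol is 1 library. Irx4, Bmp10 and Myh4 are at 0 in every library, Myl2 stays at or below 0.167 CPM, and only Myh7 exceeds 10 CPM.

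Other genes of the cardiac sarcomere had a median log2 fold change of -0.42 over 29 tested, of which 1 fell, 2 rose and 26 did not pass. The rises were in Des, intermediate filament protein of every muscle type, and Pdlim5, a Z-disc adaptor also found outside muscle, by 0.33 and 0.55 on the log2 scale. Several genes were chosen for mention after their values were seen. Ttn (titin, the partner of Tcap) was at 60.2, 66.9, 20.7 and 41.6 CPM, and Mybphl, an atrial myosin-binding protein, at 9, 7.02, 3.12 and 4.83 CPM, both with the treated libraries lower and neither past the test (adjusted p = 0.0874 and 0.0597). Actn2 (alpha-actinin, 17, 17.5, 7.56 and 16.5 CPM), Tnnc1 (cardiac troponin C, 8.21, 9.11, 4.42 and 8.12 CPM) and Mybpc3 (myosin-binding protein C, 7.51, 8.49, 4.67 and 11.3 CPM) had treated replicate 1 low and replicate 2 near or above normoxia.

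Genes of cardiac calcium handling and excitation were divided, with 2 of 24 lower, 6 higher and a median of -0.13. Kcnj5, a subunit of the acetylcholine-gated potassium channel of atrial muscle, went from 3.63 and 3.64 CPM to 1.77 and 2.06 CPM (log2 fold change -0.92 ± 0.20, adjusted p = 0.0443 in edgeR's test). Kcnj3, the other subunit of the Kcnj5 channel, was at 5.43 and 5.32 against 1.53 and 3.03 CPM (adjusted p = 0.0699). Kcnj3, Kcnj5, Kcnq1 and Slc8a1 were chosen for mention after their values were seen. The rises were in Gjc1, Cacna1c, Jph2, Gja1, Kcnq1 and Slc8a1, by 0.30 to 0.98 on the log2 scale, all of them genes that other cells of the lung such as smooth muscle or epithelium also use. Of the smooth muscle markers, 8 of 14 rose, by 0.33 to 0.81 on the log2 scale, and 1 fell, Synm; the rises with the smallest adjusted p were in Tagln, Cald1, Myl9 and Smtn (by 0.81, 0.73, 0.76 and 0.44). The 14 markers summed to 2477 and 2597 CPM in normoxia against 3197 and 3289 CPM after treatment. The part of smooth muscle in the rises on the cardiac lists was not tested.

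Genes of cardiac energy metabolism had a median of -0.43, with 3 of 20 lower and 0 higher with edgeR (0 also at an unadjusted p under 0.05, with DESeq2 and with limma-voom). They were Ldhb, a lactate dehydrogenase subunit, Coq8a, of coenzyme Q synthesis, and Eno3, the muscle enolase, by -0.54, -0.68 and -0.79 on the log2 scale; Ldhb is expressed in many cell types. Mb, myoglobin, was at 28.1, 26.8, 13.2 and 23.1 CPM. Of 17 transcription factors tested, Tbx20 and Gata6 fell and Prox1 rose, with a median of -0.32. Tbx20, a T-box factor of heart muscle, went from 4.42 and 3.94 CPM to 2.09 and 2.47 CPM (log2 fold change -0.87 ± 0.20, adjusted p = 0.0482 in edgeR's test). Prox1, which rose by 1.58, is also the master regulator of lymphatic endothelium, and Gata6, which fell by 0.32, is also a factor of lung epithelium. Of 8 genes tested of the natriuretic peptide system, Mme, the peptidase that degrades natriuretic peptides, rose by 0.57 and 0 fell with edgeR (1 at an unadjusted p under 0.05, 1 with DESeq2 and 0 with limma-voom). Nppb, the brain natriuretic peptide, was at most at 0.144 CPM. The 11 atrial chamber genes tested had a median of -0.02, near that of all genes tested, and 1 of them, Stard10, a lipid transfer protein, fell by 0.26. Mybphl and Kcnj3, named above after their values were seen, are on the same list. Stard10 was at 66.67 and 67.54 CPM in normoxia and 55.98 and 56.05 CPM after treatment, and which cells it came from was not tested.

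Over the 4 cardiac lists together, 8 of 90 genes tested fell and 9 rose, with a median of -0.39. With library size only, the split was 13 lower and 7 higher, and with upper-quartile factors 12 and 7, beside 1584 lower and 765 higher, and 1424 and 799, over all genes against 1128 and 1035 with TMM. Of these 90 genes 62 were higher in treated replicate 2 than in replicate 1, with a median ratio of 1.21, and 34.4% were at least 1.5 times as high.

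**Figure D5:**
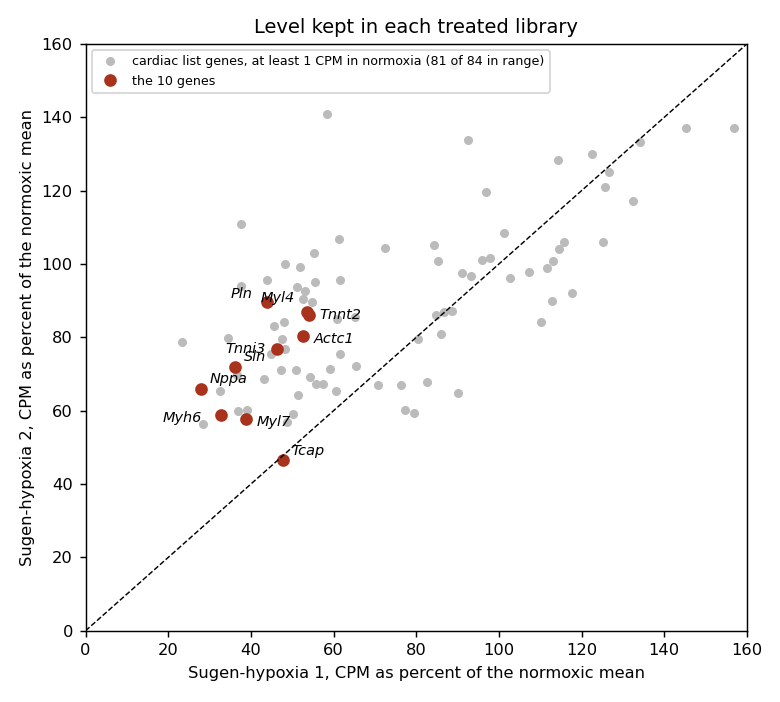
Level in Sugen-hypoxia 2 (vertical) against Sugen-hypoxia 1 (horizontal), each as percent of the normoxic mean CPM, for the 10 genes (red) and 81 of 84 genes of the 4 cardiac lists with at least 1 CPM in normoxia (grey); the dashed line marks equal levels. Of the 10 genes 9 lie above the line, with ratios of replicate 2 to replicate 1 from 1.49 in Myl7 (38.7 and 57.7%) to 2.37 in Nppa (27.9 and 66%), and Tcap lies just under it at 47.7 and 46.5%.

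The 12 genes most like the set were taken as those whose log2 CPM, centred on their own mean, had the smallest root mean square distance to the median profile of the 10 genes over the 4 libraries, among 14857 others with a mean of at least 1 CPM. They were Cfap74, Cdhr4, Podnl1, Slamf6, B430306N03Rik, Cmya5, Apol9a, Sh2d2a, Ltb4r1, Bcas1, Bves and Mb, at distances of 0.0415 to 0.0777 against a median of 0.505 over all others. Of the 12, 3 (Cmya5, Bves and Mb) were on the cardiac lists. Cfap74, the closest, was at 17.6, 16.4, 7.67 and 12.2 CPM. With 4 libraries many profiles look alike, so this order is a description.

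Tissue next to the lung was read from further lists. Fat markers, 12 genes, summed to 47.5 and 34.8 CPM in normoxia and 28.2 and 45.5 CPM after treatment, so that treated replicate 1 was again the lowest library. Of 10 tested 0 passed with edgeR (1 lower and 0 higher at an unadjusted p under 0.05, 1 lower with DESeq2 and 0 with limma-voom), with Cidec at 12.2 to 14.6 CPM, Plin4 at 6.55 to 12.5 CPM and the brown fat gene Ucp1 at 0 in 2 libraries. The fat cell hormone Adipoq, chosen after its values were seen, was at 1.49, 0.768, 0.199 and 1.06 CPM, lowest in treated replicate 1. The 10 thymus genes summed to 30.1 and 31.3 against 18.1 and 21.8 CPM, and 1 of 4 tested, Cd8b1, fell by 1.31. Nearly all of that sum came from Cd1d1, Cd4, Cd8b1 and Themis. The thymocyte gene Ptcra was at 0 in every library, and Rag1, Rag2, Dntt, Arpp21 and Foxn1 were at or below 0.234 CPM. Apart from Cd8b1 and Ptcra, these genes were named after their values were seen. Whether any of this RNA came from thymus was not tested. Mesothelium genes summed to 639 and 695 against 562 and 605 CPM, and 2 of 9, Muc16 and Lrrn4, fell. Oesophagus genes summed to 1.37 to 2.85 CPM, with 3 of 10 at 0 in every library, and 1 of 3 tested, Tgm3, fell. The part of these tissues in the levels of the cardiac genes was not tested.

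Gene counts per library ranged from 57.3 to 67.1 M (M, 1000000), and of the 10 genes Nppa had 8 to 34 reads per library and every other gene at least 119. The tissue was lung, as its source label says, although the extraction text names kidneys: the 15 lung genes summed to 35130 to 42080 CPM and the 12 kidney genes to 1.04 to 1.94 CPM. Of the lung list Scgb3a2 and Foxj1 fell by 0.59 and 0.44 on the log2 scale and 0 of 15 rose with edgeR (0 at an unadjusted p under 0.05, with DESeq2 and with limma-voom). Of the 4 kidney genes tested, 0 passed with edgeR (2 lower at an unadjusted p under 0.05, 0 with DESeq2 and with limma-voom), with Cubn at 0.585 to 0.968 CPM.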

How the data were processed

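Lung RNA was sequenced in 4 libraries, 2 normoxic and 2 Sugen-hypoxia. The authors deposited raw read counts per gene, 1 table per library, with unstranded counts and counts of each strand; STAR 2.5.1b, HTSeq and GRCm38.p4 are named in the submitters' processing notes. No annotation or strand setting is stated there or in the labels. The fourth column was used, because its counts were 20.9 to 24.9 times those of the third. Summary rows (unmapped 6.45 to 7.55%, multimapping 4.5 to 4.54%, no feature 7.73 to 9.98%, ambiguous 1.1 to 1.13% of reads) were left out. Of 47729 identifiers 47310 matched GENCODE mouse release 21. Differences were tested with edgeR 4.0.16 (R 4.3.3; filterByExpr, TMM, quasi-likelihood, two-sided, Benjamini-Hochberg at 0.05; standard errors from the F statistic). The fit was run beforehand on simulated counts in which both groups had the same spread. That run does not cover a wider spread in the treated pair, as seen in the 10 genes. DESeq2 1.42.0, limma-voom (limma 3.58.1), other factors, filters, unstranded counts, the male fraction and leaving out each library were alternatives.

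The 10 genes and the 15 other lists (defined by cell type or pathway) were chosen with earlier results of these data known. The rule for names took the 10 genes, up to 4 genes with the smallest adjusted p per list (or, with none, the 2 highest in CPM) and the 12 closest profiles. Length per principal transcript was chosen after seeing the data. Replicates were numbered in record order, which pairs nothing. Some genes that the rule takes are not reported here.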

Additional observations from a re-analysis of the deposited data

How the results depend on the processing

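Across the 13 alternatives the 10 genes gave 128 log2 fold changes, and all 128 were below 0. Every alternative used the same libraries, and in all 10 genes both treated libraries lay below both normoxic ones. Leaving out 1 library could therefore hardly change a sign, so the 128 values are not independent support. The median of the 10 genes ran from -1.15 to -0.43 with 1 library left out, and the log2 ratio of their summed CPM from -1.26 to -0.54 (-0.86 with all libraries). The counts past the threshold moved more. With 1 library left out, 0 to 9 of the 10 genes passed as lower, 0 to 43 cardiac list genes as lower and 0 to 14 as higher, 0 to 25 genes of the other lists as lower and 0 to 24 as higher, and 25 to 5101 of all genes in either direction. With the share of males in each pool in the model, 0 of the 10 genes, 0 genes of the cardiac or other lists in either direction and 11 of all genes passed. The median of the 10 genes was then -0.70 against -0.79, but that model cannot tell sex from treatment. DESeq2 called 4 of the 10 genes, 18 cardiac list genes, 18 other list genes and 1603 of all genes as lower, against 2, 8, 9 and 1128. Without an expression filter the counts called as lower were 8, 23, 19 and 1882. In either direction, 3254 of all genes were called with DESeq2 and 3657 without a filter, against 2163. With library size only, 13 cardiac and 15 other list genes were lower. The cause of these shifts was not tested. Nppa was not tested with unstranded counts or with a mean of at least 1 CPM, since it did not pass those filters, and at 8 to 34 reads counting error limits its value. No paired analysis was possible because the labels carry no replicate numbers.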
